A study of Mus musculus with 25 samples.

Results

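Loss of the tyrosine phosphatase Ptpn6 (SHP-1) was examined in mouse bone marrow neutrophils that already lacked Ripk3, the kinase that drives necroptosis. The comparison took its members from the genotype labels and set the 3 libraries labelled Ripk3-/- Ptpn6∆PMN against the 3 labelled Ripk3-/-, 6 of the 25 libraries of the series. Both groups came from female C57BL/6J mice aged 6 to 13 weeks, both carried the whole-body Ripk3 knockout, and both were labelled as not inflamed. The ∆PMN label marks deletion of Ptpn6 in polymorphonuclear cells, and the deleter strain is not given in the sources used here. Marrow cells banding between 68% and 78% Percoll were taken as neutrophils, and their messenger RNA was sequenced in pairs of 100-base reads. Mlkl-/- Ptpn6∆PMN (2 libraries) against Mlkl-/- (3), and Ripk3-/- Mlkl-/- Ptpn6∆PMN (3) against Ripk3-/- Mlkl-/- (2), served as the same deletion in other backgrounds.

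Ptpn6 is a cytoplasmic phosphatase with a pair of SH2 domains. Inhibitory receptors that carry ITIM motifs recruit it to the membrane, where it removes phosphate from Src and Syk family kinases and their substrates and so restrains integrin, Fc receptor and cytokine receptor signalling in myeloid cells. Mice without it develop neutrophilic inflammation of the skin. Ripk3 phosphorylates Mlkl, which ruptures the cell membrane in necroptosis, and caspase-8 cleaves the kinases of that pathway.

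The 6 libraries held between 21919446 and 22962181 estimated counts, with a count in 20299 to 21790 genes and 8.92% to 12.6% of all counts in the 10 most abundant genes. Levels are given as CPM, counts scaled to effective library size and not to gene length. The 15 neutrophil markers summed to 68429, 131869 and 94781 CPM in Ripk3-/- Ptpn6∆PMN replicates 1, 2 and 3, against 97515, 96708 and 93722 CPM in Ripk3-/- replicates 1, 2 and 3. Replicate 1 of the Ripk3-/- Ptpn6∆PMN group was the lowest of the 6 and replicate 2 the highest, while the Ripk3-/- libraries lay close together. Along the first principal component of the 6 libraries, which carried 38.4% of the variance, these same replicates stood at the ends, at 21.5 and -38.1, and replicate 3 at -9.59. Ripk3-/- replicates 1, 2 and 3 lay between replicates 3 and 1 of the deleted group, at 6.71, 10.5 and 8.98. Nothing in the labels says that replicates were separate mice, so p-values measure only the spread between libraries.

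Ptpn6 itself was reduced, not absent. It stood at 297, 188 and 202 CPM in Ripk3-/- Ptpn6∆PMN, against 519, 593 and 537 CPM in Ripk3-/-. Relative to the mean of the Ripk3-/- libraries, 54.0% of the level was left in replicate 1, 34.1% in replicate 2 and 36.8% in replicate 3. Replicate 1, which kept the most Ptpn6, lay beyond the Ripk3-/- libraries on the principal component, on the side away from the other deleted libraries. The groups averaged 229 ± 59.3 and 550 ± 38.3 CPM in Ripk3-/- Ptpn6∆PMN and Ripk3-/- (SD, n = 3 each). The log2 change was -1.26 (SE 0.156, edgeR adjusted p = 0.00121). In bulk RNA, a smaller share of deleted cells and less Ptpn6 RNA per cell cannot be told apart, and the gene totals do not separate the deleted part of the gene from the rest.

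Ripk3 had 4, 1 and 2 estimated counts in Ripk3-/- Ptpn6∆PMN and 1, 0 and 0 in Ripk3-/-, where the 3 wild-type libraries had 267, 204 and 249. In all 6 libraries the gene was at or close to 0, as the labels state. Mlkl, the effector downstream of Ripk3, stood at 1.78, 2.06 and 3.58 CPM in Ripk3-/- Ptpn6∆PMN and at 1.85, 1.41 and 1.59 CPM in Ripk3-/-, and the groups overlapped (log2 change 0.61, SE 0.371, edgeR adjusted p = 1). Casp8 stood at 27.9, 28.2 and 27.1 CPM against 32.1, 31.7 and 29.3 CPM in Ripk3-/-. These groups did not overlap, but the log2 change was -0.16 (SE 0.147, edgeR adjusted p = 1).

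Beyond Ptpn6, the genes that passed the test were Ap1s1, which rose, and Sh2b2, which fell. They were 3 of 16206 genes tested (0.0185% called), 1 higher (0.00617%) and 2 lower (0.0123%), by edgeR's quasi-likelihood F test with Benjamini-Hochberg adjustment at 0.05. At an unadjusted p under 0.05 there were 892 genes (5.5%), the 3 included, and the median log2 change over all genes was 0.0024. The call rested on the spread of all 23 grouped libraries. In a fit of the 6 libraries alone, Ap1s1 was the 1 gene called (0.00686%), with Ptpn6 at an edgeR adjusted p of 0.38 and Sh2b2 at 0.20. A gene's rise or fall here cannot be told apart from an effect of the deleter or of DNA carried with the conditional allele, since the labels name neither in the Ripk3-/- mice.

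Ap1s1 encodes the small sigma subunit of the AP-1 adaptor complex, which sorts cargo into clathrin-coated vesicles between the Golgi and endosomes. It stood at 79.9, 110 and 65.7 CPM in Ripk3-/- Ptpn6∆PMN, against 11.4, 12.3 and 10.7 CPM in Ripk3-/-. The lowest deleted library was thus far above the highest control, and replicate 1, which lay nearest to the controls in most of the genes below, was raised 6.97-fold over the Ripk3-/- mean. The groups averaged 85.2 ± 22.5 and 11.5 ± 0.823 CPM in Ripk3-/- Ptpn6∆PMN and Ripk3-/- (SD, n = 3 each), and the log2 change of 2.89 had an SE of 0.239 (edgeR adjusted p = 4.62e-06). None of the other 15 subunits of the AP-1, AP-2 and AP-3 adaptors that were tested reached an unadjusted p under 0.05. The nearest was Ap3s1, the sigma subunit of AP-3, at 83.2, 181 and 121 CPM in Ripk3-/- Ptpn6∆PMN and 92.7, 110 and 96.1 CPM in Ripk3-/- (edgeR log2 change 0.37, unadjusted p = 0.103).

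Sh2b2 (APS) is an SH2-domain adaptor that binds activated receptor tyrosine kinases and recruits the ubiquitin ligase Cbl. It stood at 9.53, 6.72 and 8.02 CPM in Ripk3-/- Ptpn6∆PMN, against 25.1, 24.3 and 38.8 CPM in Ripk3-/-. All 3 deleted libraries lay below every control, replicate 1 included. The groups averaged 8.09 ± 1.41 and 29.4 ± 8.11 CPM in Ripk3-/- Ptpn6∆PMN and Ripk3-/- (SD, n = 3 each), and the log2 change of -1.86 had an SE of 0.235 (edgeR adjusted p = 0.00121). Of 20 tested genes of the SH2B, CBL and signalling adaptor list, Sh2b2 was the 1 called, and Dok1, an adaptor that dampens tyrosine kinase signalling, had a log2 change of -0.35 without passing (edgeR adjusted p = 0.755). Sh2b3 (LNK), the closest relative in blood cells, stood at 244, 252 and 233 CPM in Ripk3-/- Ptpn6∆PMN and at 266, 260 and 267 CPM in Ripk3-/- (log2 change -0.12, edgeR adjusted p = 1).

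**Figure D1:**
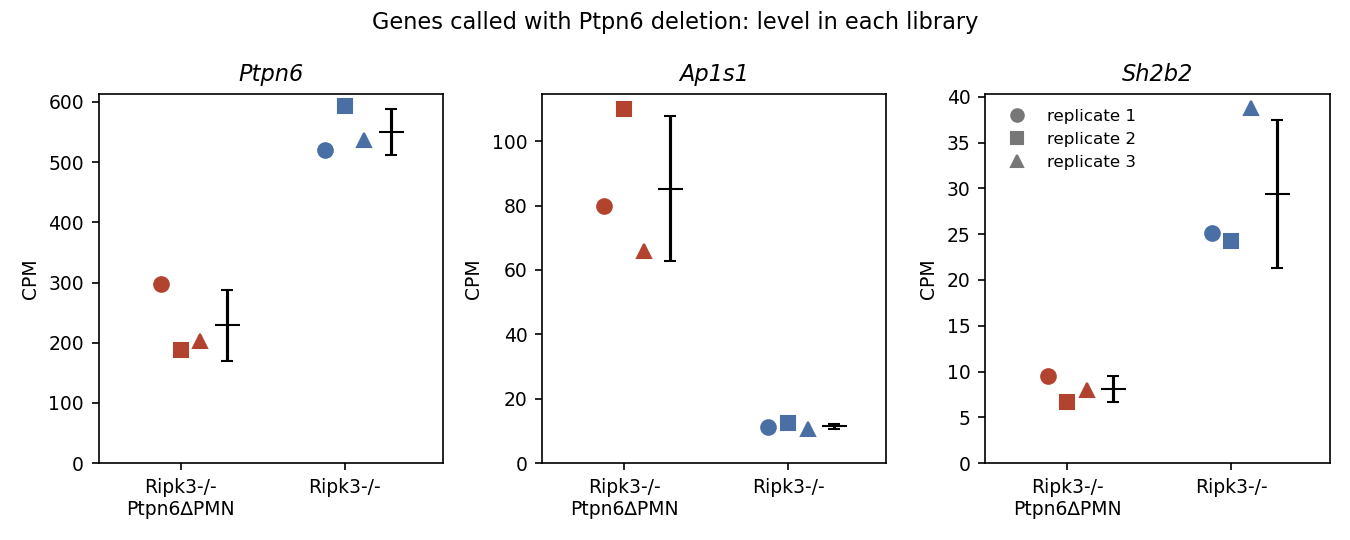
Level of Ptpn6, Ap1s1 and Sh2b2 in each library, in CPM on linear axes from 0, with Ripk3-/- Ptpn6∆PMN left of Ripk3-/-. Symbols are replicates and bars are mean ± SD (n = 3), and in each panel the groups do not overlap.

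Ap1s1 and Sh2b2 lie on the same chromosome. In GRCm38.p6, Ap1s1 spans chromosome 5 from 137034993 to 137046108 and Sh2b2 spans chromosome 5 from 136218147 to 136246595, both protein-coding, with starts 816.846 kb apart. Ptpn6 is on chromosome 6, from 124720707 to 124738709. The 250 bases upstream of the RefSeq starts of the chromosome 5 pair are shown because these genes moved in opposite directions. Capitals mark matches, on either strand, to the GC box GGGCGG and the CCAAT box CCAAT, and both windows are on the minus strand (Ap1s1 chr5:137046109-137046358, Sh2b2 chr5:136244941-136245190, the latter a start inside the span of the gene).
Ap1s1: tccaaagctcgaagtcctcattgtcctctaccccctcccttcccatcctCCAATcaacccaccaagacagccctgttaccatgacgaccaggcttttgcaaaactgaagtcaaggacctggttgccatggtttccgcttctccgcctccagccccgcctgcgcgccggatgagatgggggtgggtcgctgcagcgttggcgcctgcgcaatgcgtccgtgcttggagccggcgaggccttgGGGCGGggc
Sh2b2: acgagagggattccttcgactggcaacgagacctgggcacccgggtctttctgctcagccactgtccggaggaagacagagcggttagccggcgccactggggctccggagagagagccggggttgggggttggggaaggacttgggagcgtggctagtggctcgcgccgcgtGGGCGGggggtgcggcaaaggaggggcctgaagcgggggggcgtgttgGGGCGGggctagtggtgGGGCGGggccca
The Ap1s1 window held 1 GC box, 9 bases before the start, and 1 CCAAT box, and the Sh2b2 window held 3 GC boxes and no CCAAT box. Among 32851 mouse promoter windows of this length, 32.7% hold the GC box letters and 33.8% the CCAAT letters, so neither match is unusual. Neither window held the letters searched for a TATA box (TATAAA), a STAT site (TTCNNNGAA), PU.1 (GAGGAAGT), C/EBP (TTGCGCAA) or AP-1 (TGAGTCA), which occur in 12.4%, 7.02%, 2.44%, 0.164% and 4.46% of the windows. This says only that these letters are not in these windows.

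The neighbours of Ap1s1 had log2 changes centred near 0. Of 50 other tested genes within 1 Mb, 1 was higher and 2 were lower at an unadjusted p under 0.05, where 5.5% of all genes reached it, and their median log2 change was -0.0036. Sh2b2 was the 1 called among them. Cldn15, a claudin 67.1 kb from Ap1s1, stood at 21.0, 35.6 and 29.6 CPM in Ripk3-/- Ptpn6∆PMN and at 40.1, 42.9 and 39.2 CPM in Ripk3-/- (edgeR log2 change -0.50, unadjusted p = 0.0255). Slc12a9, a cation-chloride cotransporter family member, had a log2 change of 0.38. Around Ptpn6, 2 of 45 other genes were higher and 2 lower at that level, among them the sodium channel subunit Scnn1a described below. Around Ripk3 on chromosome 14, 1 of 49 was, the transglutaminase gene Tgm1, 85.0 kb away. Of the 24 genes of smallest p named next, 5 (20.8%) were on chromosome 5, where 5.94% of tested genes lie: Ap1s1, Steap4, Fam20c, Sh2b2 and Tec. Steap4, Fam20c and Tec lay more than 1 Mb from both Ap1s1 and Sh2b2.

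**Figure D2:**
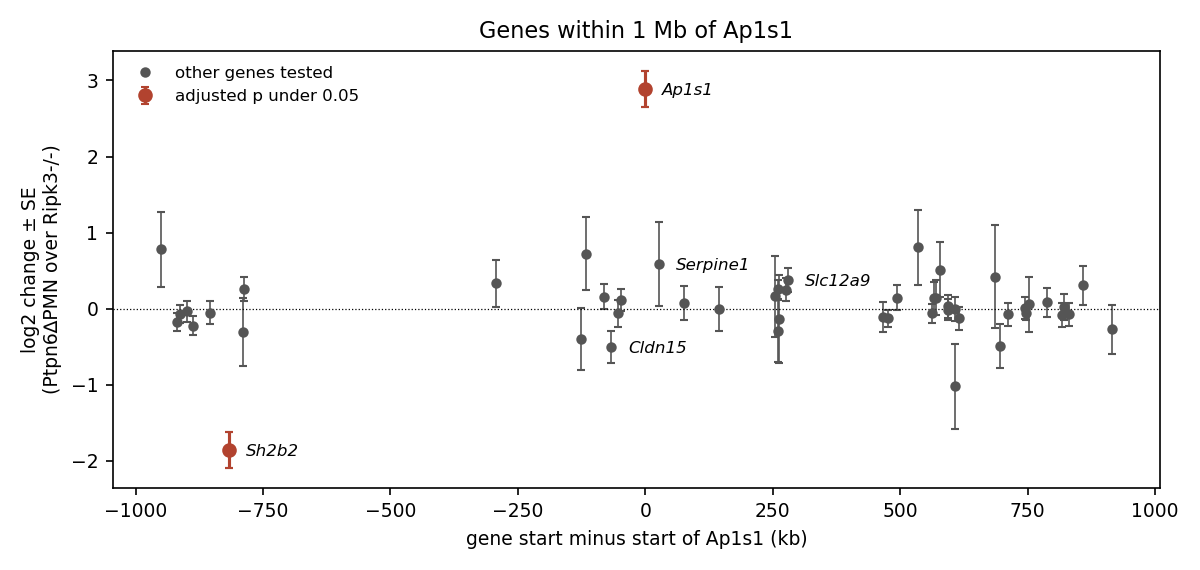
Log2 change with Ptpn6 deletion (± SE, vertical axis) of each tested gene within 1 Mb of Ap1s1 by the distance of its start from that of Ap1s1 in kb (horizontal axis). Ap1s1 at 2.89 and Sh2b2 at -1.86 stand apart from neighbours whose median is -0.0036.

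Most of the next higher genes by p-value were highest in Ripk3-/- Ptpn6∆PMN replicate 2 and nearest to the controls in replicate 1. The 12 genes of smallest unadjusted p with at least 5 CPM were taken in each direction, so that the groups do not overlap for any of them follows in part from the choice and is a description (9.22% of all genes did not overlap). Over the 12 higher genes, the median level relative to the Ripk3-/- mean was 1.53-fold in replicate 1, 8.07-fold in replicate 2 and 3.57-fold in replicate 3. Replicate 1 was the lowest of the 3 in 10 of the 12, and replicate 2 the highest in 9. Apart from Ap1s1, none of the 12 passed adjustment.

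Wfdc17, a small secreted protein of the whey acidic protein family, stood at 86.0, 806 and 350 CPM in Ripk3-/- Ptpn6∆PMN, against 33.1, 76.2 and 69.6 CPM in Ripk3-/- (log2 change 2.79, SE 0.567, edgeR adjusted p = 0.137). Prok2, prokineticin 2, a secreted chemoattractant peptide, stood at 81.3, 438 and 157 CPM, against 40.8, 44.7 and 45.1 CPM in Ripk3-/- (log2 change 2.37, SE 0.526, edgeR adjusted p = 0.195). In both, the middle deleted library was several times the highest control while the lowest, replicate 1, lay nearer to the controls. Steap4, a metalloreductase that reduces iron and copper at the membrane, stood at 118, 421 and 205 CPM, against 63.6, 77.8 and 66.3 CPM in Ripk3-/- (log2 change 1.84, SE 0.343, edgeR adjusted p = 0.101). Stfa2, a stefin that inhibits cysteine proteases, stood at 18.7, 70.1 and 72.9 CPM, against 8.53, 13.5 and 13.5 CPM in Ripk3-/- (log2 change 2.18, SE 0.456, edgeR adjusted p = 0.137). Stfa2 has close paralogs between which estimated counts can be divided, so its level is uncertain. 

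Fam20c, the Golgi kinase that phosphorylates secreted proteins, stood at 3.95, 30.3 and 16.7 CPM in Ripk3-/- Ptpn6∆PMN, against 3.05, 2.26 and 2.71 CPM in Ripk3-/-. Rab7b, a small GTPase of endosome-to-Golgi traffic, stood at 1.59, 14.7 and 7.85 CPM, against 0.742, 1.07 and 1.03 CPM in Ripk3-/-. The order of the deleted libraries was the same in both, with replicate 1 next to the controls. Ctsc, cathepsin C, which activates the serine proteases of neutrophil granules, stood at 43.7, 90.8 and 104 CPM, against 32.5, 42.2 and 41.0 CPM in Ripk3-/-. The remaining genes were the transmembrane semaphorin Sema6b, the gamma-glutamyltransferase Ggt1, the transglutaminase Tgm1 and the focal adhesion protein Tns1, with log2 changes of 1.76, 2.17, 1.91 and 0.98. Tns1 differed from the rest in its spread, at 24.6, 22.5 and 19.3 CPM in Ripk3-/- Ptpn6∆PMN against 9.03, 13.8 and 10.9 CPM in Ripk3-/-, with replicate 1 the highest. With all 25 libraries scaled together, wild-type libraries held 16.8 to 20.7 CPM of Tns1. They lay above every Ripk3-/- library and overlapped the deleted ones. The same held for Ggt1 (wild-type 23.7 to 25.7 CPM) and Rab7b (1.11 to 1.61 CPM). Wild-type Ap1s1, at 13.4 to 14.1 CPM, also lay above every Ripk3-/- library but far below the deleted ones. Wild-type Sema6b, at 14.6 to 18.5 CPM, lay below every Ripk3-/- library. In the other higher genes the wild-type and Ripk3-/- ranges overlapped.

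The 12 lower genes had log2 changes from -2.60 to -0.60, and the median of the 11 other than Ptpn6 was -0.998. Among the deleted libraries, replicate 2 was the highest in 1 of the 12, replicate 3 in 2 and replicate 1 in the rest. Tec, a Tec-family tyrosine kinase that acts downstream of cytokine and antigen receptors, stood at 28.3, 22.4 and 23.4 CPM in Ripk3-/- Ptpn6∆PMN, against 36.4, 36.3 and 39.9 CPM in Ripk3-/- (log2 change -0.60, SE 0.119, edgeR adjusted p = 0.137). Frat2, which binds the kinase GSK-3, stood at 19.2, 15.4 and 21.9 CPM, against 31.3, 32.0 and 39.2 CPM in Ripk3-/-. Its relative Frat1 stood at 24.4, 28.7 and 27.3 CPM, against 35.9, 40.5 and 46.5 CPM in Ripk3-/-. Both Frat genes thus lay lower in every deleted library, without passing (edgeR adjusted p = 0.137 and 0.262). Thbs1, the matrix protein thrombospondin-1, had the largest difference of the 12 but wide controls, at 93.0, 49.9 and 31.9 CPM in Ripk3-/- Ptpn6∆PMN and 331, 172 and 559 CPM in Ripk3-/- (log2 change -2.60, SE 0.555, edgeR adjusted p = 0.159). The carboxylesterase Ces1d (-1.65), the homeobox factor Lhx1 (-1.40), the hyaluronan receptor Lyve1 (-1.12), the sodium channel subunit Scnn1a (-0.998), the hydrolase Abhd15 (-0.72) and the glycerate kinase Glyctk (-0.65) completed the set, each given as its log2 change. Wild-type levels were also read with all 25 libraries scaled together. They lay below every Ripk3-/- library for Frat2 (19.9 to 25.3 CPM), Frat1 (28.0 to 32.5 CPM) and Lhx1 (8.30 to 12.5 CPM). The same held for Sh2b2 (17.7 to 22.4 CPM) and Tec (33.9 to 35.5 CPM). In the other genes of the set the wild-type and Ripk3-/- ranges overlapped.

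**Figure D3:**
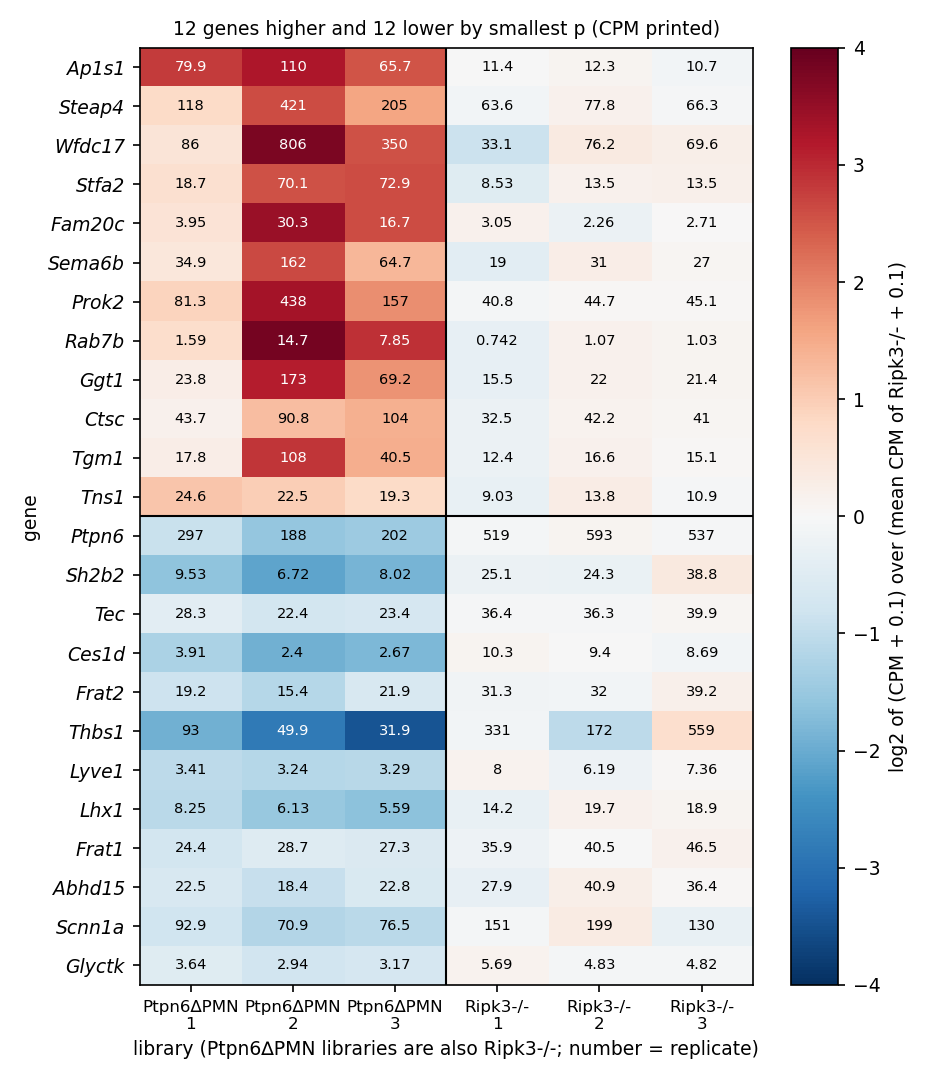
CPM (printed) of the 12 higher and 12 lower genes of smallest p in each library, coloured by log2 of (CPM + 0.1) over the Ripk3-/- mean + 0.1, with Ripk3-/- Ptpn6∆PMN columns left of Ripk3-/-. Among the higher genes, Ripk3-/- Ptpn6∆PMN replicate 1 is paler than replicate 2 in each gene but Tns1.

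How many genes passed turned on replicate 1 of the Ripk3-/- Ptpn6∆PMN group. Without it, 156 genes were called (0.971%), 83 higher and 73 lower, including the 3 called with it and 17 of the 24 genes above (11 of the 12 higher and 6 of the 12 lower). Leaving out any other library of the 6 gave 3 calls (0.0185% to 0.0186%). With no filter on low counts, 20 of 26930 genes passed (0.0743%). DESeq2's Wald test on all libraries called 38 genes (0.235%), 27 higher and 11 lower, with all 12 of the higher set and 8 of the lower set among them. Besides genes of that set, its 10 smallest adjusted p included Lrp12, an LDL receptor-related protein, at 0.504, 7.31 and 3.45 CPM in Ripk3-/- Ptpn6∆PMN against 0.330, 0.427 and 0.602 CPM in Ripk3-/-. Replicate 1 also stood apart in its stromal and endothelial markers, which summed to 469 CPM there, against 46.7 and 46.9 CPM in the other deleted libraries and 55.1, 202 and 55.4 CPM in Ripk3-/-. The part of either measure in the count of calls was not tested.

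The receptors that recruit Ptpn6 and the kinases on which it acts had no member called by edgeR. Among 21 ITIM receptors, 1 was higher and 1 lower at an unadjusted p under 0.05 and none passed, with a median log2 change of -0.07. Siglece, an inhibitory sialic acid receptor of neutrophils, stood at 366, 569 and 331 CPM in Ripk3-/- Ptpn6∆PMN and at 299, 320 and 313 CPM in Ripk3-/- (edgeR log2 change 0.44, unadjusted p = 0.0394). Cd300a, an inhibitory receptor for membrane phospholipids, stood at 191, 122 and 106 CPM and at 167, 176 and 206 CPM in Ripk3-/- (edgeR log2 change -0.39, unadjusted p = 0.0465). In Cd300a the groups overlapped, since replicate 1 lay among the controls. Of the 14 Src, Syk and Tec family kinases 1 was higher and 1 lower at an unadjusted p under 0.05 and none passed by edgeR. The lower one was Tec, which DESeq2 called (DESeq2 adjusted p = 0.00228) and which edgeR called without replicate 1 of the deleted group. Lyn, which phosphorylates ITIM motifs, stood at 552, 772 and 577 CPM in Ripk3-/- Ptpn6∆PMN against 533, 598 and 612 CPM in Ripk3-/-, and the groups overlapped. Of the other 10 phosphatases of the SHP, SHIP and CD45 list, Ptpn22, which acts on the same kinases, was the 1 that reached an unadjusted p under 0.05 (log2 change -0.40, edgeR adjusted p = 0.755). The necroptosis and caspase-8 list of 15 genes held no called gene, and its receptor-interacting kinase Ripk1 stood at 60.4, 85.7 and 68.9 CPM in Ripk3-/- Ptpn6∆PMN against 63.4, 66.7 and 64.1 CPM in Ripk3-/-.

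Lists of genes downstream were described by counts and medians. Over all genes tested, 50.4% had a log2 change above 0, 2.77% were higher and 2.73% lower at an unadjusted p under 0.05, and 3.78% were higher and 5.44% lower with no overlap between groups. Apart from Ptpn6, Ap1s1 and Sh2b2, no member of the 43 lists passed adjustment over all genes by edgeR. DESeq2 also called Tec, Prok2, Ctsc of the azurophil granule list, Tlr1 of the Toll-like receptor list and Lipg of the lipid list (DESeq2 adjusted p = 0.00228, 0.02, 0.0245, 0.0191 and 0.0164).

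The azurophil granule list, whose products are made at the promyelocyte stage, had the highest median of the pathway lists, 0.74. Of its 12 genes 10 were above 0, 5 were higher at an unadjusted p under 0.05 and 7 were higher with no overlap. Prtn3, proteinase 3, stood at 25.3, 30.6 and 65.2 CPM in Ripk3-/- Ptpn6∆PMN, against 6.22, 7.86 and 11.4 CPM in Ripk3-/- (log2 change 2.25, SE 0.758, edgeR adjusted p = 0.701). Elane, neutrophil elastase, stood at 20.6, 20.1 and 43.6 CPM, against 6.18, 7.73 and 10.0 CPM in Ripk3-/-, and Mpo, myeloperoxidase, at 123, 141 and 229 CPM, against 54.5, 51.4 and 89.3 CPM in Ripk3-/-. For each, all 3 deleted libraries lay above every control, replicate 1 included, and replicate 3 was the highest. The list's median stayed between 0.63 and 0.86 when each of the 6 libraries was left out. The whole list summed to 507, 838 and 924 CPM in Ripk3-/- Ptpn6∆PMN and to 520, 530 and 498 CPM in Ripk3-/-. The stem and progenitor marker list, which shares Prtn3 and Ms4a3 with it, had a median of 0.77 over 10 genes, with 4 higher and 0 lower at an unadjusted p under 0.05. Its markers summed to 157, 192 and 214 CPM in Ripk3-/- Ptpn6∆PMN and 168, 126 and 164 CPM in Ripk3-/-. The part of progenitors in the granule genes was not tested.

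Lists of later stages of granulopoiesis had medians near 0, over deleted libraries that lay on either side of the controls. The specific granule list of 16 genes had a median of -0.06 and none at an unadjusted p under 0.05, the gelatinase granule list of 17 a median of 0.07 and 1, and the NADPH oxidase list of 10 a median of 0.06 and 1. Specific granule genes summed to 30217, 65011 and 51664 CPM in Ripk3-/- Ptpn6∆PMN and 58942, 49988 and 45488 CPM in Ripk3-/-, so replicate 1 lay below every control and replicate 2 above. Without Ripk3-/- Ptpn6∆PMN replicate 1 the specific and gelatinase medians were 0.20 and 0.22, and without replicate 2 they were -0.28 and -0.21. Among the 16 specific granule genes, 3 were lower and 0 higher with no overlap between groups (5.44% and 3.78% of all genes were). The glycoprotein Olfm4 was among the 3, at 166, 178 and 171 CPM in Ripk3-/- Ptpn6∆PMN and 208, 261 and 295 CPM in Ripk3-/-. Of 17 granulopoiesis transcription factors, Cebpa, which starts granulocyte commitment, was the 1 at an unadjusted p under 0.05, at 43.3, 56.6 and 45.3 CPM in Ripk3-/- Ptpn6∆PMN and 57.2, 73.0 and 71.1 CPM in Ripk3-/-. The 28 cell cycle genes were all above 0 with a median of 0.36, none at an unadjusted p under 0.05 and none without overlap. The median was 0.14 without Ripk3-/- Ptpn6∆PMN replicate 3 and 0.72 without Ripk3-/- replicate 1, and it was 0.21 to 0.47 without any other library. The genes summed to 991, 763 and 1297 CPM in Ripk3-/- Ptpn6∆PMN and to 1174, 687 and 587 CPM in Ripk3-/-, so a Ripk3-/- library was the second highest of the 6.

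Cytokine receptor genes included a group that was higher without passing. Of 28 receptors, kinases and regulators of the JAK-STAT list, 5 were higher and 0 lower at an unadjusted p under 0.05, while the list's median was 0.02. Jak3, the kinase of common gamma chain receptors, stood at 59.7, 116 and 81.3 CPM in Ripk3-/- Ptpn6∆PMN, against 47.7, 51.1 and 49.0 CPM in Ripk3-/- (log2 change 0.80, SE 0.193, edgeR adjusted p = 0.262). Il4ra, the interleukin-4 receptor alpha chain, stood at 268, 735 and 329 CPM, against 181, 253 and 223 CPM in Ripk3-/- (log2 change 1.02, SE 0.276, edgeR adjusted p = 0.408). In both genes replicate 2 was highest and the groups did not overlap. Csf2rb, the beta chain shared by the GM-CSF, interleukin-3 and interleukin-5 receptors, and Csf2rb2, its interleukin-3-specific paralog, had log2 changes of 0.63 and 1.00 with groups that overlapped. Their near-identical sequences make the division of counts between them uncertain. Jak3, Il4ra and Csf2rb2 were called without replicate 1 of the deleted group.

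Innate sensing and inflammatory lists had medians between -0.05 and 0.09. Of 12 Toll-like receptor genes, Tlr1 stood at 9.88, 58.9 and 37.2 CPM in Ripk3-/- Ptpn6∆PMN and 7.42, 13.6 and 11.2 CPM in Ripk3-/- (log2 change 1.71, SE 0.429, edgeR adjusted p = 0.314), so replicate 1 lay among the controls. Tlr4, the receptor for lipopolysaccharide, stood at 98.9, 188 and 99.2 CPM against 78.8, 88.8 and 85.3 CPM in Ripk3-/-. The Toll-like receptor list had 7 genes above 0 and 5 below, with 2 higher and 2 lower without overlap between groups. Of 16 interleukin-1 family genes none was higher and 2 were lower at an unadjusted p under 0.05. One was Il1rn, the secreted antagonist of the interleukin-1 receptor, at 258, 238 and 163 CPM in Ripk3-/- Ptpn6∆PMN and 326, 376 and 339 CPM in Ripk3-/- (log2 change -0.66, edgeR adjusted p = 0.736). Of 13 inflammasome genes, Casp4, which senses cytosolic lipopolysaccharide, and Mefv, which encodes pyrin, were higher at that level, with log2 changes of 0.68 and 0.48. Of 21 TNF and NF-kB genes 0 were higher and 3 lower at that level, the inhibitors Nfkbid and Nfkbie and the subunit Relb, with log2 changes of -0.29, -0.30 and -0.27. Of 14 chemoattractant receptors, Cxcr4, which holds neutrophils in the marrow, stood at 582, 419 and 506 CPM in Ripk3-/- Ptpn6∆PMN and 671, 695 and 695 CPM in Ripk3-/- (log2 change -0.45, edgeR adjusted p = 0.673). Cxcr1, a receptor for CXC chemokines, stood at 9.41, 14.3 and 13.3 CPM against 4.62, 7.60 and 9.38 CPM in Ripk3-/-.

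The immediate early genes leaned lower. Of 20, 17 were below 0 with a median of -0.35, 0 were higher and 3 lower at an unadjusted p under 0.05. Their sums were 2396, 3241 and 2213 CPM in Ripk3-/- Ptpn6∆PMN and 2932, 2945 and 2997 CPM in Ripk3-/-, so deleted replicate 2 lay above every control. Jun stood at 22.2, 20.5 and 12.9 CPM in Ripk3-/- Ptpn6∆PMN and 26.6, 33.1 and 22.8 CPM in Ripk3-/-, and the stress factor Atf3 at 3.95, 0.834 and 1.73 CPM and 3.83, 4.53 and 5.98 CPM in Ripk3-/-. The 30 glycolysis and hypoxia genes leaned higher, with 27 above 0 and a median of 0.18, which was 0.02 at the lowest when 1 library was left out. They summed to 10484, 18551 and 14167 CPM in Ripk3-/- Ptpn6∆PMN and 11578, 12521 and 12858 CPM in Ripk3-/-, so deleted replicate 1 lay below every control. Pfkl, a phosphofructokinase, stood at 30.7, 44.3 and 41.3 CPM in Ripk3-/- Ptpn6∆PMN and 23.2, 28.7 and 23.1 CPM in Ripk3-/-. Slc2a1, the glucose transporter GLUT1, stood at 96.7, 238 and 127 CPM and 65.9, 90.5 and 91.1 CPM in Ripk3-/-. For Pfkl and Slc2a1 the groups did not overlap (edgeR adjusted p = 0.337 and 0.408). Among lipid genes, Lipg, endothelial lipase, stood at 4.07, 115 and 27.4 CPM in Ripk3-/- Ptpn6∆PMN and 4.70, 7.86 and 3.27 CPM in Ripk3-/-. Abcg1, a cholesterol exporter, stood at 88.7, 43.9 and 59.5 CPM and 101, 108 and 108 CPM in Ripk3-/-. Medians were 0.02 for 32 oxidative phosphorylation genes and 0.04 for 63 ribosomal protein genes, and the 1 ribosomal gene at an unadjusted p under 0.05, Rpl30, rested on a single Ripk3-/- library at 39.1 CPM, the other libraries being between 1.15 and 2.99 CPM.

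Markers of other cells were present in all libraries. Macrophage markers had the lowest median of all lists, -0.89, with 14 of 15 below 0 and 7 lower with no overlap, and stayed between -1.16 and -0.66 when each library was left out. The complement gene C1qb stood at 5.42, 2.65 and 3.12 CPM in Ripk3-/- Ptpn6∆PMN and 6.59, 10.6 and 8.26 CPM in Ripk3-/-, and the whole list summed to 207, 248 and 190 CPM and 197, 305 and 265 CPM in Ripk3-/-. B cell markers had a median of -0.33 and summed to 1473, 734 and 998 CPM in Ripk3-/- Ptpn6∆PMN and 1332, 1125 and 1526 CPM in Ripk3-/-. Erythroid markers summed to 738 to 4885 CPM in Ripk3-/- Ptpn6∆PMN and 2397 to 10025 CPM in Ripk3-/-. Monocyte markers summed to 1711 CPM in Ripk3-/- Ptpn6∆PMN replicate 3, where Ccr2 was 115 CPM, and to 921 to 1178 CPM in the other libraries. Their part in the changes of other genes was not tested. Medians of the T and NK cell, dendritic cell, basophil and mast cell, eosinophil, megakaryocyte and plasma cell lists were -0.31, -0.07, -0.37, 0.14, 0.09 and -0.25. Of the 13 dendritic cell markers tested, 2 were higher and 4 lower at an unadjusted p under 0.05. That list summed to 338, 265 and 402 CPM in Ripk3-/- Ptpn6∆PMN and 298, 626 and 706 CPM in Ripk3-/-.

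**Figure D4:**
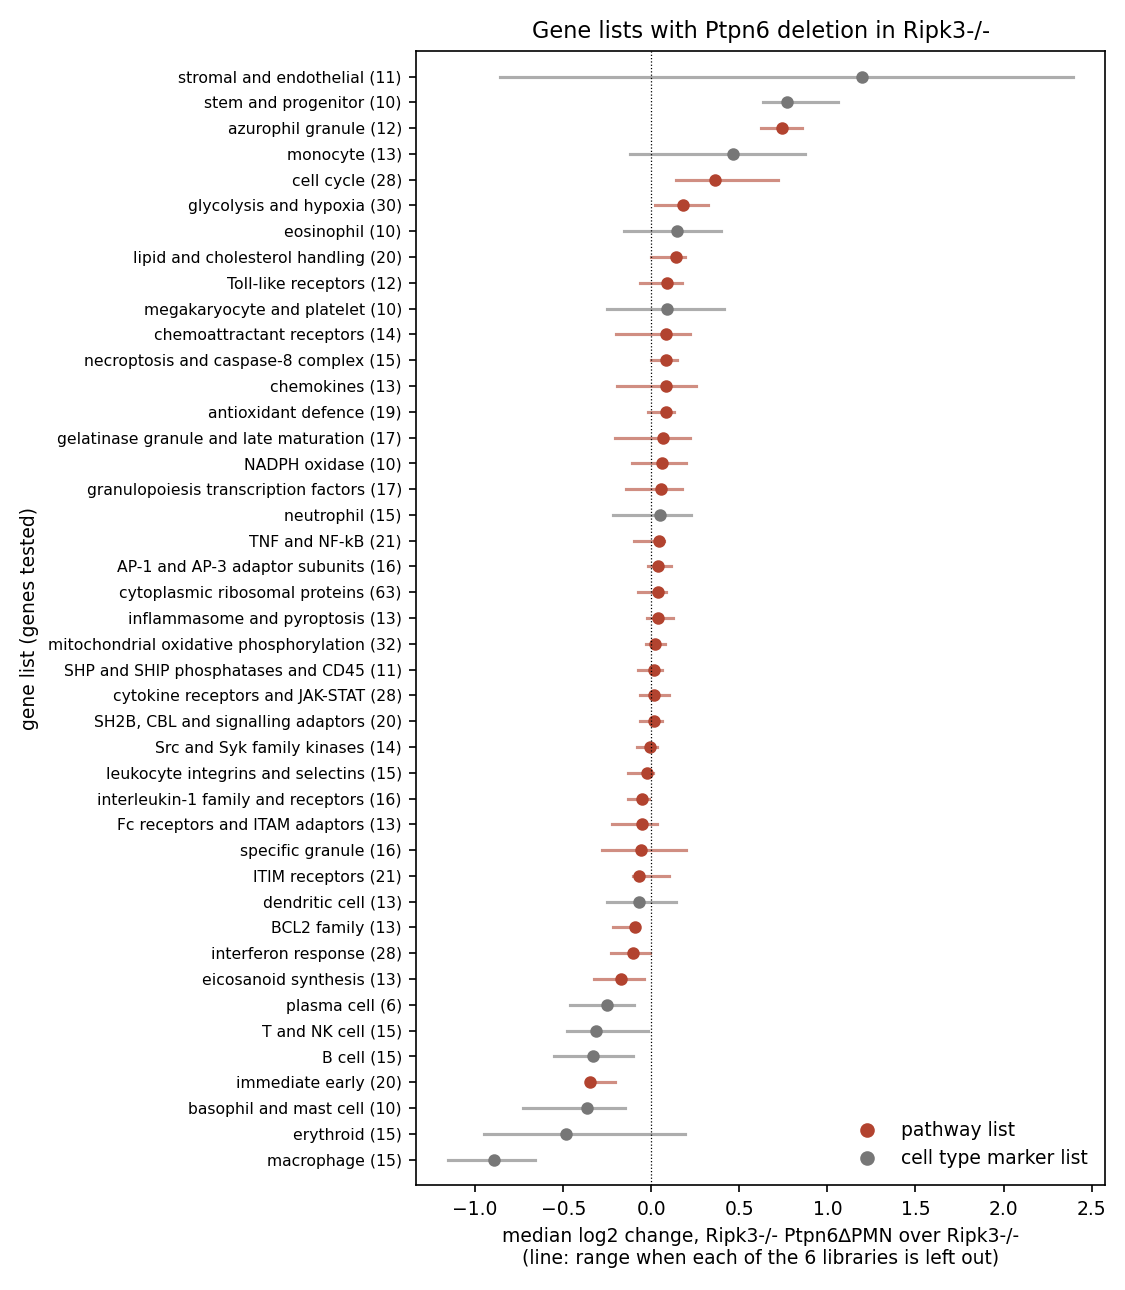
Median log2 change of each gene list, Ripk3-/- Ptpn6∆PMN over Ripk3-/- (horizontal axis, points), with the range when each of the 6 libraries is left out (lines) and the genes tested in parentheses. The azurophil granule list stays between 0.63 and 0.86 and the macrophage list between -1.16 and -0.66, whereas the stromal list spans -0.86 to 2.40.

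The 24 genes were then read in the other backgrounds. Those libraries share none with the contrast that chose the genes, but they entered the same fit and so its estimate of spread. In Mlkl-/- neutrophils, all 12 higher genes had log2 changes above 0 with Ptpn6 deletion. Of them, 10 reached an unadjusted p under 0.05 (8.86% of all genes did so upward) and 8 were called, where 0.987% of all genes were called higher, of 1.51% called in all. Their median log2 change was 2.38 there, against 2.18 in Ripk3-/-. Prok2 rose by 2.88 (SE 0.565, edgeR adjusted p = 0.0255) and Fam20c by 3.77 (SE 0.599, edgeR adjusted p = 0.0107) on the log2 scale in Mlkl-/-. All 11 lower genes other than Ptpn6 were below 0 there too, 8 at an unadjusted p under 0.05, where 8.63% of all genes were. Sh2b2 was the 1 called, where 0.518% of all genes were called lower (log2 change -1.45, SE 0.267, edgeR adjusted p = 0.0236).

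In Ripk3-/- Mlkl-/- neutrophils the 12 higher genes were again all above 0, but their median was 0.59. Ap1s1 was the 1 at an unadjusted p under 0.05, where 2.31% of all genes were higher and 5.12% reached it in all, and the 1 gene called (log2 change 3.28, SE 0.288, edgeR adjusted p = 1.3e-05). Of the 11 lower genes 9 were below 0, 4 at an unadjusted p under 0.05, where 2.81% of all genes were, and none passed. Sh2b2 stood at a log2 change of -1.19 there (SE of 0.251, edgeR adjusted p = 0.507). Ap1s1 was thus called in each of the 3 backgrounds, while genes such as Fam20c, at 0.42 in Ripk3-/- Mlkl-/-, and Rab7b, at 0.29, stood closer to 0 there. The difference itself did not pass for any gene by edgeR. Ptpn6 itself had a log2 change of -1.71 in Mlkl-/- (SE 0.183, edgeR adjusted p = 0.000153). In Ripk3-/- Mlkl-/- it was -1.01 (SE 0.170, edgeR adjusted p = 0.0838), which did not pass. Ptpn6 was left at 183 and 194 CPM in Mlkl-/- Ptpn6∆PMN, and at 256.5, 315 and 311 CPM in Ripk3-/- Mlkl-/- Ptpn6∆PMN. The part of this in how the other genes differed between backgrounds was not tested.

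**Figure D5:**
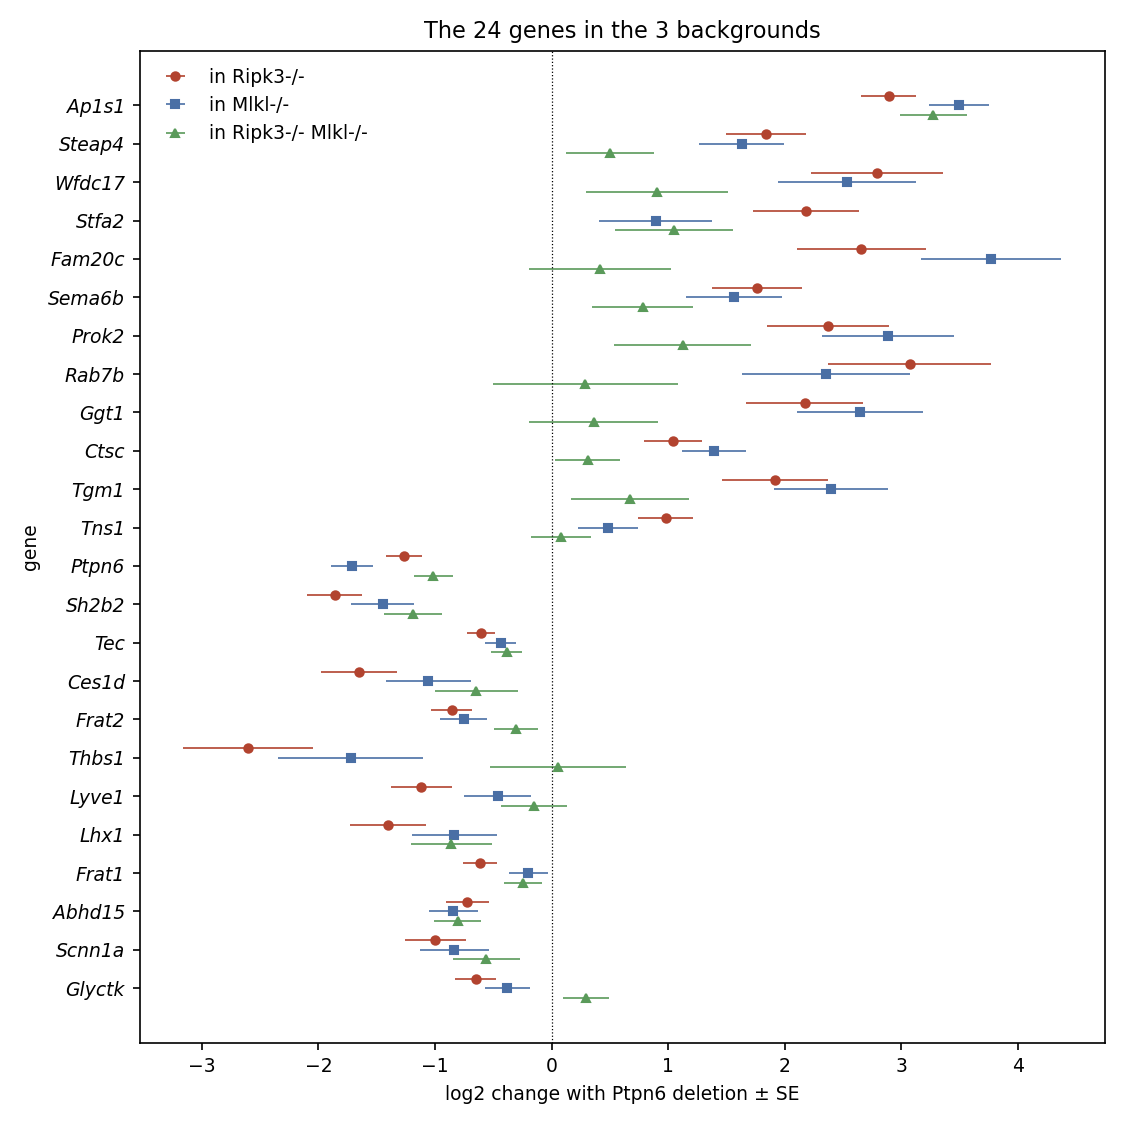
Log2 change with Ptpn6 deletion (± SE, horizontal axis) of the 24 genes chosen in Ripk3-/- (circles), in Mlkl-/- (squares) and in Ripk3-/- Mlkl-/- (triangles). Ap1s1 lies between 2.89 and 3.50 in all 3, and of the other higher genes all but Stfa2, at 0.90 in Mlkl-/- and 1.05 in Ripk3-/- Mlkl-/-, lie nearest to 0 in Ripk3-/- Mlkl-/-.

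The change in Ripk3-/- was then tested against the change in each other background by an interaction contrast. Against Mlkl-/-, edgeR called 0 genes and DESeq2 4, while 947 genes (5.84%) had an unadjusted edgeR p under 0.05. Against Ripk3-/- Mlkl-/-, edgeR and DESeq2 called 0, while 457 genes (2.82%, 1.65% upward and 1.17% downward) had an unadjusted edgeR p under 0.05. For Ap1s1, the log2 change in Ripk3-/- minus that in Mlkl-/- was -0.61 (SE 0.336), and minus that in Ripk3-/- Mlkl-/- it was -0.38 (SE 0.342). For Sh2b2 these differences were -0.41 (SE 0.342) and -0.67 (SE 0.344).

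The smallest p-values against Mlkl-/- belonged to genes whose log2 change was near 0 in Ripk3-/- and farther from 0 in Mlkl-/-. Wdr7, which associates with the vacuolar proton pump, had a log2 change of -0.02 in Ripk3-/- and 0.83 in Mlkl-/- (difference -0.85, SE 0.156, edgeR adjusted p = 0.261). Jup, the junction protein plakoglobin, had -0.21 and 1.02, Cfl2, an actin-severing cofilin, 0.22 and -0.72, and Fam105a -0.10 and -1.63 (edgeR adjusted p of each difference = 0.833). Helz2 and Cmpk2, both interferon-induced, had log2 changes of -0.05 and -0.24 in Ripk3-/- and of 1.14 and 0.98 in Mlkl-/-.

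The interferon response list showed the same pattern. In Ripk3-/- its 28 genes had a median log2 change of -0.10, with 11 above 0 and none at an unadjusted p under 0.05. In Mlkl-/- all 28 were above 0, with a median of 1.03. The difference of the changes was below 0 in all 28 and reached an unadjusted p under 0.05 in 24 (85.7%, where 2.96% of all genes did in that direction), while none passed adjustment (lowest edgeR adjusted p = 0.833). Interferon-induced genes are known to rise and fall together, so the 28 are not independent of each other. Summed over the 28 genes, Ripk3-/- Ptpn6∆PMN libraries held 2845, 2558 and 2147 CPM, against 2847, 2708 and 2252 CPM in Ripk3-/-. Mlkl-/- Ptpn6∆PMN libraries held 4588 and 5943 CPM, against 2469, 3018 and 2372 CPM in Mlkl-/-. Ripk3-/- Mlkl-/- Ptpn6∆PMN libraries held 2131, 2446 and 4292 CPM, against 4967 and 3188 CPM in Ripk3-/- Mlkl-/-. The deleted libraries thus overlapped their controls in Ripk3-/- and lay above them in Mlkl-/-, where the list rests on 2 deleted libraries.

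Against Ripk3-/- Mlkl-/-, the smallest p-values of the difference belonged to P4ha1, a collagen prolyl hydroxylase, with a log2 change of 0.64 in Ripk3-/- and -0.44 in Ripk3-/- Mlkl-/- (difference 1.08, SE 0.272), and to the peptide transporter Slc15a2. Slc15a2 had log2 changes of 0.67 in Ripk3-/- and 5.92 in Ripk3-/- Mlkl-/- (difference -5.24, SE 1.38). It varied widely between libraries, at 31.6, 14.6 and 47.6 CPM in Ripk3-/- Ptpn6∆PMN and 4.95, 11.8 and 42.2 CPM in Ripk3-/-. Glyctk followed, lower in Ripk3-/- at -0.65 and at 0.30 in Ripk3-/- Mlkl-/-, then the formin Daam1, the tetraspanin Cd81 and Edem2, which acts in the disposal of misfolded glycoproteins. Their differences were -0.95, 0.79, -0.73 and 0.77. None passed (edgeR adjusted p = 0.998 for each of the 6).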

How the data were processed

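Estimated counts per gene (35741 genes, 25 libraries) were used as the authors deposited them. Per the submitters' processing notes, Salmon 0.14.1, the mouse build GRCm38.p6 and DESeq2 were used upstream, and the step from transcripts to genes is not given in the sources used here. Counts were rounded to whole numbers. Groups follow the genotype labels, and a library with conflicting labels and the unreplicated Casp8∆PMN Ptpn6∆PMN library stayed out of the fit. One edgeR model (version 4.0.16, R 4.3.3) covered the remaining 23 libraries of 9 groups, scaled by TMM and filtered by filterByExpr (at least 10 counts in a group's worth of libraries and 15 in all), with 14 residual degrees of freedom and 16206 genes. Its two-sided quasi-likelihood F test was adjusted by Benjamini-Hochberg at 0.05. RefSeq supplied coordinates for 95.73% of the tested genes, and promoter sequence.

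Named genes were the targeted and called genes, the 12 of smallest unadjusted p in each direction whose higher group averaged 5 CPM or more (predicted genes and receptor segments left out), the 10 of smallest DESeq2 adjusted p, up to 4 members per list (any member for the receptor, kinase, phosphatase and necroptosis lists), genes within 1 Mb of a called gene or Ripk3, and the 6 of smallest p for each difference between backgrounds. The comparison, the 30 pathway lists and the 13 marker lists were chosen with earlier results of these data known. Tried as alternatives were DESeq2 size factors, no filter, the test of DESeq2 1.42.0, a fit of the compared libraries alone, blocking on replicate number, and dropping each library. No pair of the 6 libraries agreed within sampling noise. On simulated counts of 15876 genes for this comparison, drawn with the same spread in every group, 46 of 100 changes of 2-fold and 82 of 100 changes of 4-fold were recovered, with 4 other genes called. Figures were drawn with matplotlib 3.10.9. The single-gene result of 1 kinase list member is not reported here.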

Additional observations from a re-analysis of the deposited data

Results flagged for a closer look

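One library of the series, Casp8∆PMN Ptpn6∆PMN, was used in none of the comparisons, since it has no replicate. It is the only library labelled as inflamed, and it has Ripk3 and Mlkl intact. Of the 12 genes chosen as higher with Ptpn6 deletion in Ripk3-/-, 11 stood above the highest of the 11 libraries without conditional deletion there, as did 17.8% of all tested genes. Of the 11 lower genes other than Ptpn6, 7 stood below the lowest of those libraries, as did 15.3% of all tested genes, while Frat1, Frat2, Lhx1 and Glyctk lay within the range. With all 25 libraries scaled together, Ap1s1 was at 129.7 CPM, against 8.16 to 14.1 CPM without conditional deletion. Wfdc17 was at 482.0 CPM against 32.9 to 109 CPM, Prok2 at 395 CPM against 29.7 to 81.6 CPM, and Steap4 at 317 CPM against 50.3 to 128 CPM. Sema6b was at 120.3 CPM against 14.6 to 43.8 CPM, Ggt1 at 144 CPM against 15.4 to 27.1 CPM, and Ctsc at 92.3 CPM against 32.2 to 43.9 CPM. Tgm1 was at 62.9 CPM against 11.4 to 22.7 CPM, Fam20c at 27.9 CPM against 2.25 to 3.95 CPM, Stfa2 at 26.0 CPM against 7.995 to 20.6 CPM, and Rab7b at 5.20 CPM against 0.738 to 2.07 CPM. Tns1 did not stand above, at 17.5 CPM against 8.98 to 23.6 CPM. This is 1 library, so the differences have no replicate check.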

How the results depend on the processing

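For Ptpn6 deletion in Ripk3-/-, 3 genes were called. The count was 20 of 26930 genes with no filter on low counts, 38 with DESeq2's Wald test, 1 of 14575 with only the 6 libraries fitted, and 3 with DESeq2 size factors. When 1 library was left out it ran from 3 to 156, the highest without Ripk3-/- Ptpn6∆PMN replicate 1. The cause of these shifts was not tested. For the difference from Mlkl-/-, 0 genes were called, 1 with no filter and 4 with DESeq2. For the difference from Ripk3-/- Mlkl-/-, 0 were called, and 0 to 7 when 1 library was left out, the 7 without Ripk3-/- Mlkl-/- replicate 3, which leaves that group 1 library assumed to vary like the others. Across the 11 alternatives the log2 change of Ap1s1 ran from 2.67 to 3.05, that of Sh2b2 from -1.99 to -1.61 and that of Ptpn6 from -1.50 to -1.14. None of the 25 genes run under these alternatives, the 24 of smallest p and Lrp12, changed direction.

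The replicate numbers showed no pairing of the samples, and the labels do not say what a number marks. Libraries of the same number had deviations from their group means that correlated at -0.02, -0.05 and -0.13. Those of different number correlated at -0.04 to 0.10. With 3 libraries in each group, these values cannot decide whether the samples were paired. With the replicate block, 3 genes were called for the deletion in Ripk3-/- and 0 for each difference. At this depth and number of libraries 46 of 100 simulated 2-fold changes were recovered, so a gene not called here may still have changed. The simulation gave each gene the same spread in every group. It did not copy the wide spread among the Ripk3-/- Ptpn6∆PMN libraries, so the share recovered may not hold for this comparison.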

Other observations

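Some further genes of the same comparison stood out by their values in some of the libraries. Siglech, a receptor of plasmacytoid dendritic cells, was at 1.16, 0.245 and 2.43 CPM in Ripk3-/- Ptpn6∆PMN and at 0.206, 0.171 and 0.172 CPM in Ripk3-/-. The class II genes H2-Ab1 and H2-Aa split the Ripk3-/- libraries instead. H2-Ab1 was at 22.7, 23.7 and 32.1 CPM in Ripk3-/- Ptpn6∆PMN and at 24.2, 67.7 and 75.4 CPM in Ripk3-/-, where replicate 1 lay with the deleted libraries. Bglap, the bone matrix protein osteocalcin, was at 18.8 CPM in Ripk3-/- Ptpn6∆PMN replicate 1 and listed at 0 in replicates 2 and 3, and at 0, 0.897 and 0.172 CPM in Ripk3-/-. None of these genes passed adjustment (edgeR adjusted p = 0.415 for Siglech, 0.755 for H2-Ab1, 0.833 for H2-Aa and 0.86 for Bglap).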
